A study of Mus musculus with 12 samples.

Results

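The messenger RNAs of 9 genes of the cellular response to low oxygen that do not code for glycolytic enzymes were followed in tumourspheres of 2 mouse mammary cancer lines. The genes were taken by name from a fixed list (Adm, Vldlr, Bnip3, Bnip3l, Ddit4, Ndrg1, P4ha1, P4ha2 and Kdm3a) and all 9 were present among the 18278 genes of the count files. Each of the 9 also passed the filter on low counts, which kept 18176 genes. Adm and Vldlr passed it only through the groups in which they were high, so that a difference in these 2 genes was built into their passing. The same caution holds for other genes below with few reads in their low groups, such as Ramp1 and P4ha3. LM1 and LM9 are lines grown out of the lungs of immunodeficient NOD/SCID mice that carried mammary tumours of a PIK3CA-mutant, transposon-mutagenised mouse line. LM1 Nfib KO and LM9 Nfib KO are the same lines after CRISPR-Cas9 targeting of Nfib, the gene of the transcription factor NFIB, and each is an oligoclonal pool, a mixture of a small number of edited clones. All 4 groups therefore share the PIK3CA mutation and the transposon history, and as described each knockout group stands for its own few clones. Every group had 3 libraries, made from spheres after 6 days without serum in the presence of EGF and basic FGF. The labels give no oxygen level, so the genes are named here for what they are known to answer to and not for a treatment of these cells.

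Cells sense a lack of oxygen through the hypoxia-inducible factors, HIF, whose alpha subunits are destroyed while oxygen is plentiful and accumulate when it is scarce. The stabilised factor binds a short core motif, the hypoxia response element, near its target genes. Besides the enzymes of glycolysis these targets include secreted vasodilator peptides, receptors that take up lipoproteins, proteins that mark mitochondria for removal, brakes on growth signalling, enzymes that mature collagen and histone demethylases. The genes below cover each of these roles. Some of them also answer to other stresses, such as nutrient withdrawal and glucocorticoids.

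Library totals ran from 29249075 to 37162594 counts, so that 3 counts corresponded to between 0.0807 and 0.103 counts-per-million (CPM) of the unscaled totals. Values below are CPM after TMM scaling, a correction for the makeup of each library that puts the same 3 counts at 0.0730 to 0.121 CPM, as mean ± SD of 3 libraries unless single libraries are listed. The labels do not say whether replicates were separate cultures, so p-values measure the spread between libraries, which may be technical. The knockout labels were not matched by less Nfib mRNA, which stood at 218 ± 22.6 CPM in LM1 against 235 ± 5.67 CPM in LM1 Nfib KO (limma-voom adjusted p = 0.533). In LM9 it stood at 154 ± 48.8 CPM against 240.0 ± 11.2 CPM in LM9 Nfib KO (limma-voom adjusted p = 0.00260). Counts over whole exons do not show whether a transcript carries an edit, and every direction given for these libraries rests on their labels. The groups differed in much more than hypoxia genes, with 81.2% of all genes past the threshold in LM1 and 82.3% in LM9. All 9 measured luminal epithelial markers were lower in the knockout-labelled libraries of both lines, from a summed 831 to 897 CPM in LM1 and 891 to 1694 CPM in LM9 to between 2.26 and 2.69 CPM. Of 7 fibroblast markers 6 were higher, with a sum of 293 to 311 CPM in LM1 and 174 to 288 CPM in LM9 against 1309 to 1402 CPM. The remaining one, Dcn, was lower in LM1 Nfib KO (11.5 ± 0.536 CPM against 90.7 ± 4.57 CPM) and did not pass in LM9. Of 3 endothelial markers Kdr and Cdh5 were higher, the sum rising from at most 1.33 CPM to between 350 and 359 CPM, while Pecam1 passed in neither line. Of 3 basal epithelial markers 2 were higher in both lines, while the remaining one, Trp63, was lower in LM1 Nfib KO (0.302 ± 0.0801 CPM against 17.1 ± 1.71 CPM) and did not pass in LM9. The basal sum ran from 15.8 to 19.1 CPM in LM1 and from 0.443 to 17.98 CPM in LM9, against 6.78 to 7.63 CPM in the knockout-labelled libraries. Cd68, the 1 measured leukocyte marker, was lower. The part of these shifts in the results below was not tested, and in bulk RNA fewer cells of a type and less RNA per cell cannot be told apart. LM9 replicate 1 resembled the LM1 libraries more than the other LM9 libraries, and LM9 changes without it are given for Adm, Vldlr, Ddit4, Ndrg1 and P4ha1.

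Of the 9 genes, 8 fell in the knockout-labelled libraries of both lines and 1, Vldlr, rose in both. In LM1 the 8 falls compare with 38.1% of all genes lower and the 1 rise with 43.1% higher, at a limma-voom adjusted p under 0.05. For LM9 these background shares were 38.0% and 44.3%. Over both lines together, 33.5% of genes were lower in each line and 39.6% higher in each. The median log2 fold change of the 9 genes was -1.95 in LM1 and -2.00 in LM9, beside 0.08 and 0.13 over all genes tested. Each of the 9 passed the test, so the list divides into 8 genes that fell and 1 that did not. Where a gene is given with a pair of changes below, these are log2 fold changes in LM1 and in LM9, in that order. The largest fall or rise of a list is taken on their average, among genes past the threshold in both lines at a mean of at least 1 CPM. Among the genes that fell the sizes were uneven. Adm went from a clear level to almost no reads, while the other 7 stayed well detected, with log2 fold changes from -1.39 to -2.85 in LM1 and from -1.40 to -3.85 in LM9. For every gene the libraries of a line and of its knockout pool did not overlap, which was also true of 89.1% of all genes in LM1 and 80.5% in LM9. The exact two-sided permutation p was 0.1 for each of these 18 comparisons, the smallest that 3 libraries against 3 can give.

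**Figure D1:**
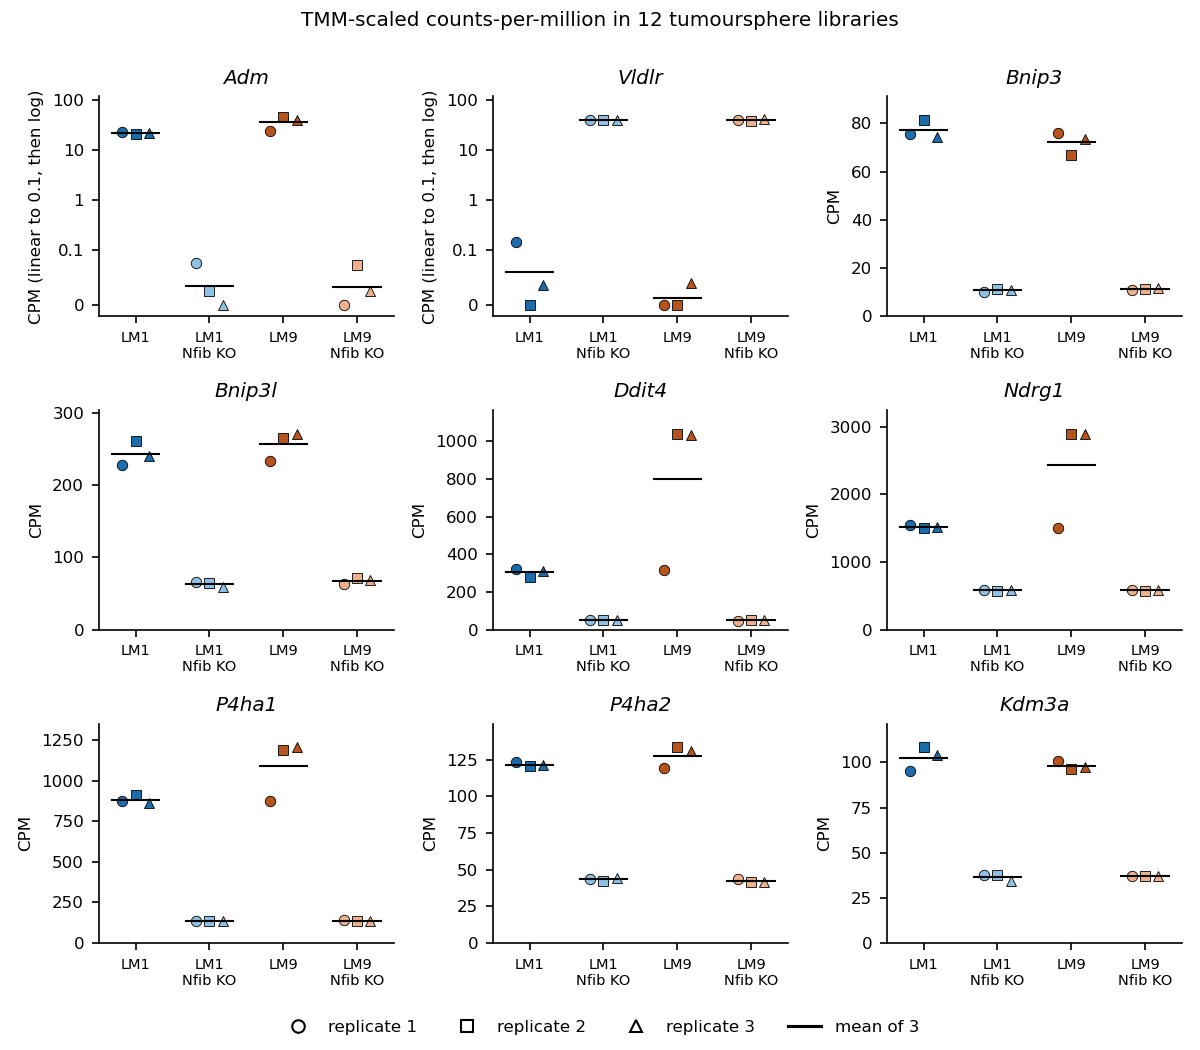
TMM-scaled CPM of the 9 genes in each of the 12 libraries, with groups on the horizontal axis, 1 point per library (circle, square and triangle for replicates 1, 2 and 3) and a line at the mean of 3. The axes of Adm and Vldlr are linear up to 0.1 CPM and logarithmic above it, and all others are linear from 0. All panels but that of Vldlr step down from the parental to the knockout-labelled libraries and that of Vldlr steps up. In Ddit4, Ndrg1 and P4ha1 the circle of LM9 lies at the LM1 level, apart from replicates 2 and 3.

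**Figure D2:**
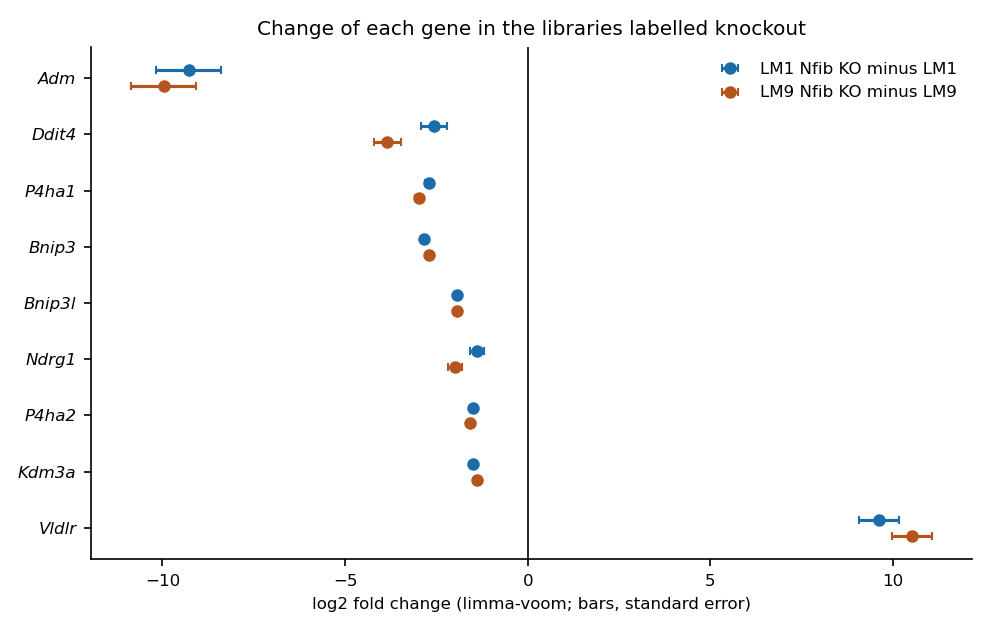
Log2 fold change of each gene in the knockout-labelled libraries against their own parental line, fitted with limma-voom, with bars of 1 standard error. Points left of 0 are falls, which hold for 8 genes in both lines, and Vldlr is the 1 gene to the right, at 9.62 in LM1 and 10.53 in LM9.

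The promoters of these genes were read from RefSeq on the GRCm38.p6 assembly, as windows of 250 bases before to 50 bases after each annotated start. Entries were matched for 7 of the 9 genes, with 10 windows in all. Each window was searched on both strands for ACGTG and GCGTG, the letters of the hypoxia response element core. A match describes the letters in the window and is not evidence of binding. Of the 7 genes, 6 held at least 1 match, in 6 of 10 windows, while 43.8% of 32851 windows of the same kind did. Bnip3 held 5 matches, of which 2 are the same CACGTG read on each strand and overlap. P4ha2 held 4, P4ha1 3, Adm and Ddit4 2 each, and the first of the 3 Kdm3a windows 1. Neither window of Vldlr held one. ACGTG alone was found in 19.6% of all windows and GCGTG alone in 32.4%. The windows of 4 genes that fell are printed beside both windows of the gene that rose, 5′ to 3′ on the gene's own strand, with the matches in capitals. In Adm both matches are GCGTG on the opposite strand, and so read CACGC. The letters TTGGC, which make up one arm of the palindrome bound by NFI proteins, occurred in 5 of the 10 windows and in 46.7% of all windows. The full NFI palindrome, TTGGC followed after 5 bases by its reverse complement, was found in 0 of the 10 windows and in 0.0365% of all windows.
Bnip3, chr7:138909457-138909756, minus strand: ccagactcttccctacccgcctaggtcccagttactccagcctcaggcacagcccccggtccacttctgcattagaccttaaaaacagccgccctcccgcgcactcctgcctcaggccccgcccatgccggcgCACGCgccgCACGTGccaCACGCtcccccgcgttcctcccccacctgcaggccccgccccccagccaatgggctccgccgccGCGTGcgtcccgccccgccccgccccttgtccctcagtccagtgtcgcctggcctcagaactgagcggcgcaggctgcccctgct
P4ha1, chr10:59323046-59323345, plus strand: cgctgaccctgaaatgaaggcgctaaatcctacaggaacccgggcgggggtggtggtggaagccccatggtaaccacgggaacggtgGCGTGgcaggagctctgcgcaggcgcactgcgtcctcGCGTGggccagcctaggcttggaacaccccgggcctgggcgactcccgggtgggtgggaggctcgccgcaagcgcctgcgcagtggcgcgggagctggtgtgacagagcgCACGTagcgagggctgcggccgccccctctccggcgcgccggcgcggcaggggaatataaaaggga
Ddit4, chr10:59951721-59952020, minus strand: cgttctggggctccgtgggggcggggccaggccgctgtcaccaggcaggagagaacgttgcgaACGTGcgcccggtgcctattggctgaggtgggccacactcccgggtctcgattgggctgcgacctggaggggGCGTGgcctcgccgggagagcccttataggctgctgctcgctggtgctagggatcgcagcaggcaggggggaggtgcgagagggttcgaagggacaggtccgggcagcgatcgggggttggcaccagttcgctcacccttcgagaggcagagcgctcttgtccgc
Adm, chr7:110627407-110627706, plus strand: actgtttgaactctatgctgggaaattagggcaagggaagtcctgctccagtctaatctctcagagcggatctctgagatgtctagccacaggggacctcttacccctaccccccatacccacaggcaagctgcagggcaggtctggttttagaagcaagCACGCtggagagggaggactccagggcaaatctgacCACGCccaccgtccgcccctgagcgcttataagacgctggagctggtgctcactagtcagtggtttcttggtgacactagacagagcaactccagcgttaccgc
Vldlr window 1, chr19:27216234-27216533, plus strand: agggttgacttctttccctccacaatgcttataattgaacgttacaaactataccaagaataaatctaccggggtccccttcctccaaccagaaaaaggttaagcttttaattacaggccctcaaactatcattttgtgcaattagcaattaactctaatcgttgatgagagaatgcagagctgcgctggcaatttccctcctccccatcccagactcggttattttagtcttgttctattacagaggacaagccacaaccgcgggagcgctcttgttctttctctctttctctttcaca
Vldlr window 2, chr19:27216770-27217069, plus strand: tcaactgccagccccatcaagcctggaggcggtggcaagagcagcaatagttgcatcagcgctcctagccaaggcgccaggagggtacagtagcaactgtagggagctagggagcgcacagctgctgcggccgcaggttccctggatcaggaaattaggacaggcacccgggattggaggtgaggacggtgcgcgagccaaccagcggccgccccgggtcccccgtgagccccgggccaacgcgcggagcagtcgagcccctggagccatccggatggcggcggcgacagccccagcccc

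Adm encodes adrenomedullin, a secreted peptide that widens blood vessels and acts on endothelial cells. The gene (ENSMUSG00000030790) lies on the plus strand of chromosome 7 between 110627661 and 110629820 (mm10). Its 3 LM1 libraries were at 23.4, 21.0 and 22.6 CPM, and the LM1 Nfib KO libraries at 0.0755, 0.0261 and 0 CPM. The LM9 libraries were at 23.8, 45.7 and 40.5 CPM, and the LM9 Nfib KO libraries at 0, 0.0730 and 0.0260 CPM. In raw counts the knockout-labelled libraries held 3, 1 and 0 reads in LM1 and 0, 3 and 1 in LM9, at or under the floor of 3 counts, so a low level of Adm in them was not measurable at this depth. Summed over libraries and scaled for library size, Adm was 645 times lower in LM1 Nfib KO (95% counting interval 252 to 2370) and 1061 times lower in LM9 Nfib KO (414 to 3898). These intervals are exact Poisson intervals and cover counting error only. The fitted log2 fold changes were -9.29 (SE 0.89, limma-voom adjusted p = 1.56e-06) and -9.97 (SE 0.89, limma-voom adjusted p = 8.10e-07), the latter being -10.25 without LM9 replicate 1. A fitted value against so few reads depends on the small offset added by the model and is not a bound.

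The relatives of adrenomedullin moved in both directions. Of the 6 measured genes of its peptides and receptors, 4 rose and 2 (33.3%) fell in both lines. Over all genes 39.6% rose and 33.5% fell, so the falls were at the background share. Adm2, which encodes the related peptide intermedin, had 0 counts in every parental library and reached 37.9 ± 0.911 CPM in LM1 Nfib KO and 37.4 ± 0.450 CPM in LM9 Nfib KO. Set against a floor of 3 counts in each parental library, the rise was at least 370-fold for LM1 and 330-fold for LM9. Ramp1, for a partner protein of receptors of this peptide family, fell from 94.3 ± 10.9 CPM in LM1 to 0.138 ± 0.0657 CPM, or 3 to 8 counts (log2 fold change -9.37). In LM9 its log2 fold change was -9.27. Ramp2 and Ramp3, for further partners of this kind, rose by 1.38 and 1.53 and by 1.79 and 1.33. Adm and Adm2 thus took opposite courses, and the knockout-labelled libraries held reads of the second peptide gene with almost none of the first.

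Vldlr encodes the very low density lipoprotein receptor, which takes up triglyceride-rich lipoproteins and also receives the signalling protein reelin. The gene (ENSMUSG00000024924) spans 27216484 to 27254231 of chromosome 19, plus strand. Its level was 0.142, 0 and 0.0361 CPM in LM1, or 4, 0 and 1 counts, and at 39.7, 39.9 and 40.5 CPM in LM1 Nfib KO. In LM9 it had 0, 0 and 1 counts, and it was at 40.1, 38.1 and 42.1 CPM in LM9 Nfib KO. Every knockout-labelled library lay close to 40 CPM and each parental library close to the detection limit. The ratio of summed reads, scaled for library size, was 708 in LM1 (95% counting interval 303 to 2182) and 3198 in LM9 (574 to 126344), the last interval being wide because it rests on 1 read. The fitted log2 fold changes were 9.62 (SE 0.54, limma-voom adjusted p = 1.39e-08) and 10.53 (SE 0.54, limma-voom adjusted p = 6.62e-09), the latter being 10.18 without LM9 replicate 1.

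Among 7 other measured genes of reelin signalling and lipoprotein uptake, 4 fell and 2 rose in both lines, beside 33.5% and 39.6% of all genes. Lrp8, the second receptor for reelin, rose by 1.23 in LM1 and 1.38 in LM9 on the log2 scale (limma-voom adjusted p of 8.10e-08 and 3.54e-08). Mylip, a ubiquitin ligase that sends lipoprotein receptors for degradation, had the largest fall in the list at -4.44 and -3.62.

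Bnip3 and Bnip3l encode outer mitochondrial membrane proteins that recruit the autophagy machinery and so lead to removal of mitochondria. Bnip3 (ENSMUSG00000078566, chromosome 7, minus strand, 138890836 to 138909519) was at 75.7, 81.4 and 74.5 CPM in LM1 and at 9.87, 11.4 and 10.9 CPM in LM1 Nfib KO. It was at 76.1, 66.9 and 73.5 CPM in LM9 and at 10.6, 11.2 and 11.5 CPM in LM9 Nfib KO. The parental libraries of both lines lay in one band and the knockout-labelled ones in another, with a 7.20-fold difference of means in LM1 and 6.50-fold in LM9. The log2 fold changes were -2.85 (SE 0.08, limma-voom adjusted p = 6.66e-11) and -2.70 (SE 0.08, limma-voom adjusted p = 1.02e-10). An annotated antisense gene, Gm45507, shares exonic sequence with Bnip3 and has no row in the count files. Whether counting used strand is not given in the sources used here.

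Bnip3l (ENSMUSG00000022051, chromosome 14, minus strand, 66985239 to 67008877) was at 229, 262 and 240 CPM in LM1 and at 66.6, 63.9 and 58.8 CPM in LM1 Nfib KO. The LM9 libraries were at 233, 266 and 272 CPM, and the LM9 Nfib KO libraries at 63.1, 71.0 and 68.7 CPM. Its fall was smaller than that of Bnip3 in point estimate, -1.95 in LM1 (SE 0.08, limma-voom adjusted p = 1.28e-09) and -1.92 in LM9 (SE 0.08, limma-voom adjusted p = 1.39e-09). The difference between these 2 falls was not tested. Among 18 other mitophagy receptors, kinases and adaptors 9 fell and 4 rose in both lines, beside 33.5% and 39.6% of all genes. Calcoco1 had the largest fall (-2.26 and -2.02) and Pptc7, a phosphatase that holds BNIP3 and BNIP3L protein in check, the largest rise (1.25 and 1.87). Fundc1, another mitophagy receptor tied to hypoxia, fell by 0.89 and 0.59, and Pink1, the kinase of the depolarisation-driven pathway, fell by 0.87 and 0.91. The autophagosome genes Map1lc3b and Gabarap fell as well, by 1.31 and 0.83 in LM1.

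Ddit4 encodes REDD1, which is made under hypoxia and other stresses and restrains the growth kinase complex mTORC1. The gene (ENSMUSG00000020108) occupies 59949669 to 59951834 of chromosome 10, minus strand. Its level was 323, 281 and 310 CPM in LM1 and at 50.9, 51.6 and 52.0 CPM in LM1 Nfib KO. The LM9 libraries were at 319, 1042 and 1033 CPM, and the LM9 Nfib KO libraries at 47.7, 48.9 and 49.3 CPM. The knockout-labelled libraries were tightly grouped in both lines, whereas the LM9 libraries were split, with replicate 1 at the LM1 level. Means differed 5.92-fold in LM1 and 16.4-fold in LM9, with log2 fold changes of -2.56 (SE 0.37, limma-voom adjusted p = 4.59e-05) and -3.85 (SE 0.37, limma-voom adjusted p = 1.36e-06). Without LM9 replicate 1 the LM9 value was -4.41 (SE 0.05). The LM1 value was then -2.56 with an SE of 0.05 as well, since the fit shares 1 spread per gene over all groups. Of 13 other genes of mTORC1 and its stress brakes, 8 rose and 4 (30.8%) fell in both lines, beside 39.6% and 33.5% of all genes. Ddit4l, the REDD1 paralog, had 0 counts in all parental libraries and was at 8.10 ± 0.385 CPM in LM1 Nfib KO and 7.92 ± 0.166 CPM in LM9 Nfib KO, at least 79.2-fold and 69.9-fold higher than the floor of 3 counts. Of the sestrins, which also brake mTORC1, Sesn3 fell by 4.85 and 4.12 and Sesn1 by 1.22 and 0.50, while Sesn2 rose by 2.28 and 2.31. Among genes of the complex, Rptor, Mlst8 and Akt1s1 rose by 1.61, 1.51 and 1.81 in LM1 and Deptor fell by 1.38. Mtor itself had a log2 fold change of -0.004 there (limma-voom adjusted p = 0.974).

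Ndrg1 encodes a cytoplasmic protein that is induced by hypoxia and by differentiation and has been studied as a restraint on metastasis. It spans 66929318 to 66969640 of chromosome 15 on the minus strand (ENSMUSG00000005125). Its level was 1541, 1505 and 1517 CPM in LM1 and at 590, 570 and 579 CPM in LM1 Nfib KO. The LM9 libraries were at 1507, 2896 and 2902 CPM, and the LM9 Nfib KO libraries at 589, 573 and 587 CPM. Ndrg1 kept a high level in every library, and again LM9 replicate 1 sat with LM1. Its log2 fold change was -1.39 in LM1 (SE 0.19, limma-voom adjusted p = 3.65e-05), the smallest fall of the 8 genes in that line by point estimate. In LM9 it was -2.00 (SE 0.19, limma-voom adjusted p = 1.59e-06), or -2.31 (SE 0.02) without LM9 replicate 1. The SE of the LM1 value was then 0.02 too. An antisense gene, Gm17035, and a divergent gene, Gm2895, overlap its exons, with at most 16 and 37 counts in any library. Of the other NDRG genes, Ndrg2 fell from 8.65 ± 0.233 CPM in LM1 to at most 1 count in each LM1 Nfib KO library, Ndrg3 fell by 0.94 and 0.87 on the log2 scale, and Ndrg4 rose by 2.61 in LM1 and 3.25 in LM9.

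P4ha1 and P4ha2 encode catalytic alpha subunits of collagen prolyl 4-hydroxylase, the enzyme of the endoplasmic reticulum that makes collagen stable as a triple helix. P4ha1 (ENSMUSG00000019916, chromosome 10, plus strand, 59323296 to 59373304) was at 873, 912 and 863 CPM in LM1 and at 136, 137 and 135 CPM in LM1 Nfib KO. Its LM9 libraries were at 875, 1188 and 1207 CPM, and its LM9 Nfib KO libraries at 140, 134 and 135 CPM. All 6 knockout-labelled libraries fell within a narrow band near 135 CPM. The log2 fold changes were -2.70 (SE 0.10, limma-voom adjusted p = 5.63e-10) and -2.98 (SE 0.10, limma-voom adjusted p = 2.60e-10), or 6.50-fold and 7.99-fold between means. The LM9 value was -3.13 (SE 0.03) without LM9 replicate 1, and the SE of the LM1 value was then 0.03 too.

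P4ha2 (ENSMUSG00000018906, chromosome 11, plus strand, 54100095 to 54131665) was at 123, 121 and 121 CPM in LM1 and at 43.6, 42.2 and 44.4 CPM in LM1 Nfib KO. In LM9 it was at 119, 134 and 131 CPM, and in LM9 Nfib KO at 43.6, 41.7 and 41.9 CPM. Its fall of 1.49 in LM1 and 1.59 in LM9 on the log2 scale (SE 0.06 in each, limma-voom adjusted p of 6.85e-10 and 4.26e-10) was 2.80-fold and 3.01-fold between means. The difference from P4ha1 was not tested. P4ha3, the remaining alpha subunit, rose from 0.389 ± 0.121 to 8.69 ± 0.177 CPM in LM1 and from 0.217 ± 0.189 to 8.74 ± 0.153 CPM in LM9. These were differences of 4.45 and 5.99 on the log2 scale, from 8 to 17 counts in LM1 and 0 to 10 in LM9. P4hb, the protein disulphide isomerase that serves as the beta subunit for all of them, had a log2 fold change of 0.45 in LM1 (limma-voom adjusted p = 0.0348) and -0.11 in LM9 (limma-voom adjusted p = 0.568). Of 13 other collagen hydroxylases and folding partners, 8 fell and 2 rose in both lines, beside 33.5% and 39.6% of all genes. The largest fall was in Plod2, a lysyl hydroxylase, at -1.75 and -1.40.

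Kdm3a encodes a histone demethylase that removes methyl groups from lysine 9 of histone H3 and needs oxygen to do so. The gene (ENSMUSG00000053470) spans 71588972 to 71632990 of chromosome 6, minus strand. Its level was 95.3, 109 and 104 CPM in LM1 and at 37.4, 37.7 and 34.6 CPM in LM1 Nfib KO. The LM9 libraries were at 101, 96.4 and 97.4 CPM, and the LM9 Nfib KO libraries at 37.4, 37.1 and 37.0 CPM. Here LM9 was not split, and the 6 parental libraries shared one band. The log2 fold changes were -1.49 (SE 0.06, limma-voom adjusted p = 1.33e-09) and -1.40 (SE 0.06, limma-voom adjusted p = 2.27e-09). Of 19 other JmjC histone demethylases 10 fell and 3 rose in both lines, beside 33.5% and 39.6% of all genes. The paralog Kdm3b fell by 0.94 and 0.76, and Jmjd1c had a log2 fold change of -0.69 in LM1 (limma-voom adjusted p = 0.00555) and 0.01 in LM9 (limma-voom adjusted p = 0.947). Kdm4d had the largest fall, from 7.53 ± 0.446 CPM in LM1 to 0.0956 ± 0.0411 CPM, and Kdm8 the largest rise, by 2.69 and 3.60.

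Levels of related genes were set beside each other per kilobase of exon, a choice made after the changes had been seen. P4ha1 made up 91.6 ± 0.258% of the summed level of the 3 alpha subunit genes in LM1 and 77.2 ± 0.410% in LM1 Nfib KO. The share of P4ha2 went from 8.32 to 16.3% and that of P4ha3 from 0.0527 to 6.49%, while the sum of the 3 went from 234 to 42.7 CPM per kilobase. P4ha1 therefore stayed the most abundant of the 3, with a smaller share of a smaller total, and LM9 gave a share of 92.7% (93.2% without replicate 1) against 77.6%. In the NDRG family the share of Ndrg1 went from 91.4 to 69.7% in LM1 and that of Ndrg4 from 2.00 to 24.4%. Ddit4 held 100% of the per-kilobase level of the Ddit4 pair in LM1 and 91.4% in LM1 Nfib KO. The adrenomedullin pair was exchanged, since Adm held 100% in LM1 and 0.0728% in LM1 Nfib KO. Its summed level went from 13.8 to 29.2 CPM per kilobase in LM1 and from 22.7, or 26.6 without replicate 1, to 28.9 in LM9. Of the reelin receptor pair, Vldlr held 0.155% in LM1 and 31.0% in LM1 Nfib KO, and Lrp8 the rest. Kdm3a went from 44.9 to 33.3% of the KDM3 genes and Bnip3 from 35.1 to 22.5% of the BNIP3 pair.

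**Figure D3:**
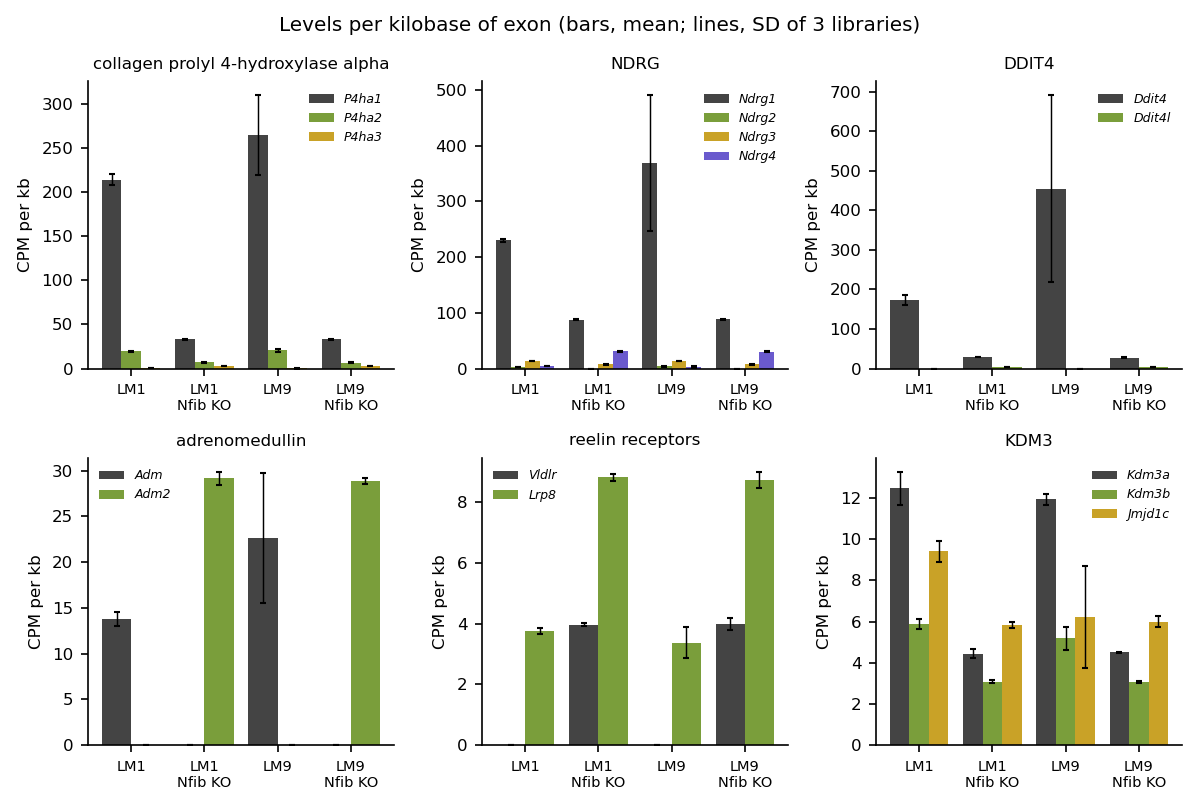
Mean level per kilobase of exon (CPM per kb, bars from 0) of each gene beside its closest paralogs in the 4 groups, with lines for the SD of 3 libraries. The dark bars of P4ha1, Ndrg1 and Ddit4 are the tallest of their families in all groups, while Adm gives way to Adm2 and a bar of Vldlr is visible in the knockout-labelled groups alone.

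Per kilobase, the order of the genes in LM1 ran from Ndrg1 at 231 CPM per kilobase through P4ha1 at 215, Ddit4 at 174, Bnip3l at 63.1, Bnip3 at 34.1 and P4ha2 at 19.5 to Adm at 13.8, Kdm3a at 12.5 and Vldlr. Of these neighbours, the libraries of Adm and Kdm3a overlapped and the other neighbours did not. In LM1 Nfib KO the order was Ndrg1 at 87.9, P4ha1 at 33.0, Ddit4 at 29.3, Bnip3l at 16.4, P4ha2 at 6.96, Bnip3 at 4.73, Kdm3a at 4.44, Vldlr at 3.97 and Adm. Ndrg1, P4ha1, Ddit4 and Bnip3l thus kept their places, Bnip3 and P4ha2 changed places, and Bnip3 overlapped Kdm3a. In LM9 the leading genes, Ddit4 at 455 ± 236, Ndrg1 at 369 ± 122 and P4ha1 at 265 ± 45.4 CPM per kilobase, overlapped, and this came from replicate 1. In that library Ndrg1 was at 228, P4ha1 at 213 and Ddit4 at 182. In replicates 2 and 3, set apart after their values were seen, Ddit4 was at 594 and 588, Ndrg1 at 439.0 and 439.9 and P4ha1 at 289 and 293 CPM per kilobase, an order without overlap. Ndrg1 lay above P4ha1 in all 3 LM9 libraries.

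Whether the 2 lines differed in these changes was tested as an interaction. In point estimate 5 genes fell further in LM9 than in LM1 (Adm, Ddit4, Ndrg1, P4ha1 and P4ha2), but 0 of 9 passed, with limma-voom adjusted p from 0.202 to 0.901, and 0.00% of all genes did. Before adjustment 2 genes, Ddit4 and Ndrg1, were under 0.05 with limma-voom, as were 4495 of 18176 genes. The edgeR and DESeq2 tests each called 0 of the 9. Without LM9 replicate 1 the fall was larger in LM9 for 4 genes past the threshold. The difference was then 1.85 for Ddit4 (SE 0.07), 0.92 for Ndrg1, 0.43 for P4ha1 and 0.15 for P4ha2 on the log2 scale, and 57.2% of all genes passed, so the result was not particular to this list. The 2 comparisons share no libraries.

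The parental lines were next compared with each other. None of the 9 genes passed with limma-voom, where 0.00550% of all genes did. For 4 genes the adjusted p was just above the threshold: Ddit4 was lower in LM1 by a log2 difference of -1.20 (limma-voom adjusted p = 0.0543), Ndrg1 by -0.62 (0.0543), Adm by -0.65 (0.0572) and P4ha1 by -0.29 (0.0575). These 4 had an unadjusted p under 0.05, as had 8661 of 18176 genes. DESeq2 called all 4 of them and 5772 of 18176 genes, while edgeR called 0 of the 9. The spread came from 1 library. LM9 replicate 1 was closer to the LM1 mean than to the other LM9 libraries in 8 of 8 genes with a parental level, and inside the LM1 range in 6. Replicates 2 and 3 lay above every LM1 library in 6 genes, below in Bnip3 and within the range in Kdm3a. Their mean was 3.40 times the LM1 mean for Ddit4, 1.93 times for Adm, 1.91 times for Ndrg1 and 1.36 times for P4ha1. For Bnip3l it was 1.10, for P4ha2 1.09, for Kdm3a 0.944 and for Bnip3 0.909 times the LM1 mean. Without LM9 replicate 1, 7 of the 9 genes passed, all but Vldlr and Kdm3a, with Bnip3 higher in LM1 and the other 6 lower, and 65.7% of all genes passed. The libraries of LM1 and LM9 did not overlap for 1 gene, Adm, as for 17.0% of all genes.

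**Figure D4:**
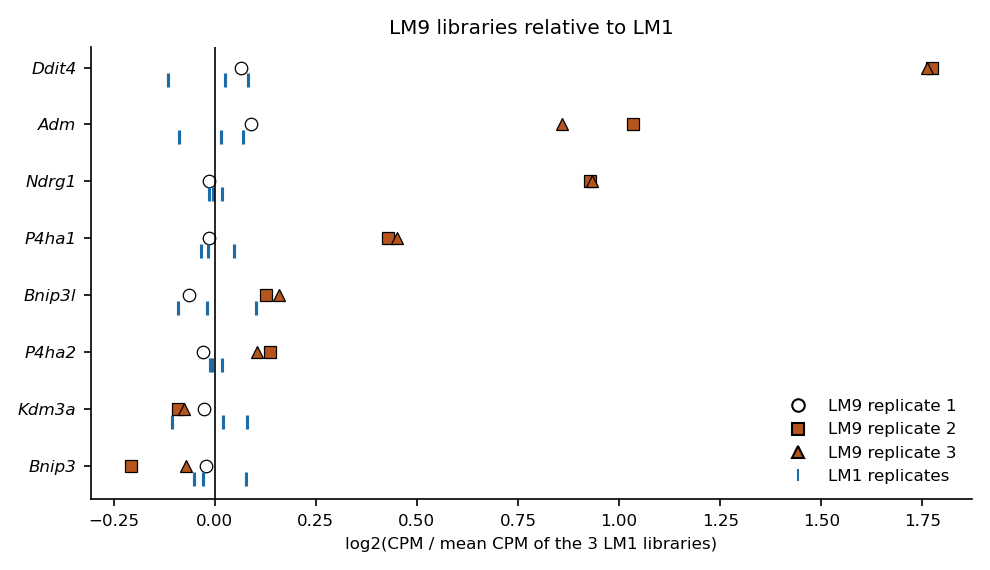
Log2 ratio of each LM9 library to the mean CPM of the 3 LM1 libraries, for the 8 genes with a parental level (open circle, replicate 1; filled square and triangle, replicates 2 and 3; ticks, the LM1 libraries). Replicate 1 lies near 0 for every gene, while replicates 2 and 3 lie far to the right for Ddit4, Adm, Ndrg1 and P4ha1.

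The 2 knockout pools were also set against each other. Correlations of log2 CPM over all genes tested ran from 0.9931 to 0.994 both within a pool and between the pools. Between a pool and its own parental line they ran from 0.6851 to 0.7006. Whether the 2 knockout labels stand for separate populations was not tested, so changes shared by both lines may not be 2 separate observations. No gene of the 9 passed, each at a limma-voom adjusted p of 1.00, and 0.00% of all genes did. Before adjustment, too, 0 of the 9 were under 0.05, beside 178 of 18176 genes, and edgeR and DESeq2 each called 0. The 95% interval of the difference ran from -0.10 to 0.17 on the log2 scale for P4ha2, from -0.17 to 0.12 for Kdm3a and from -0.43 to 0.41 for Ndrg1, so differences inside these ranges cannot be told apart from 0. For Adm the interval was -2.71 to 2.76, since almost no reads were present. The libraries of the pools did not overlap for 1 gene, Ddit4, as for 12.6% of all genes. The parental split of Ddit4 and Ndrg1 within LM9 had no counterpart in LM9 Nfib KO, where the 3 libraries lay within 2 CPM of one another for Ddit4.

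Other non-glycolytic genes of the hypoxia response also moved in both directions. Of 35 measured, 20 fell and 7 rose in both lines, beside 33.5% and 39.6% of all genes. Their median log2 fold change averaged over the lines was -0.88, beside 0.11 over all genes. Cxcr4, a chemokine receptor, had the largest fall on the average of the lines (-6.08 and -6.18), although Car9, carbonic anhydrase IX, fell further in LM1 (-6.17 and -5.53). Stc2, a secreted glycoprotein, had the largest rise, from 0.0102 ± 0.0177 to 21.0 ± 0.445 CPM in LM1. The glycolytic genes of the response gave 11 falls and 7 rises among 23, with a median of -0.29. Aldoa, an aldolase, has a second identifier with few reads in the count files, and with it as a separate entry there were 12 falls among 24 and the median was -0.61. Among them Aldoc, a related aldolase, fell from 223 ± 1.63 to 2.37 ± 0.196 CPM in LM1, and Slc16a3, a lactate exporter, rose from at most 3 counts to 82.7 ± 3.19 CPM. The lists were chosen with earlier results of these data known, and no difference between them was tested. Of the factors themselves, Hif1a mRNA fell by 1.68 and 1.38 on the log2 scale and Epas1 mRNA, coding for HIF2 alpha, rose by 7.08 and 5.95. HIF activity is set mainly at the protein level, which these libraries do not measure.

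Lastly, the genes whose pattern over the 12 libraries was most like each of the 9 were listed by the root mean square difference of centred log2 CPM, among 10271 genes at a mean of at least 10 CPM. Ndrg1 was closest to Adipor2 (0.0424) and Slc2a1 (0.0443), the glucose transporter GLUT1. Ddit4 was closest to Spns2 (0.0978) and Snai1 (0.111), P4ha1 to Phf11d (0.0556) and Qsox1 (0.0593), and Bnip3 to Cmtm6 (0.0708) and Nuak2 (0.0734). For Bnip3l these were Zfand6 (0.0583) and Btg3 (0.0694), for Kdm3a Mpp5 (0.0442) and Fbxl5 (0.0446), and for P4ha2 the processed pseudogene Gm8960 (0.0341), whose reads near-identical copies may share, and Lancl1 (0.0389). Distances were larger for Vldlr, at 0.605 from Fxyd6 and 0.607 from Bace2. For Adm they were 0.479 to its closest gene and 0.568 to Bcam, the second closest. Within the list the closest pair was P4ha2 and Kdm3a (0.105), followed by Bnip3 and P4ha1 (0.205). These distances describe 12 libraries that fall into few distinct states, and they carry no test.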

How the data were processed

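Stranded poly-A libraries were sequenced by the authors as single-end reads, which they aligned with STAR to mm10 and counted 5′ read ends over the exon union of each gene with QuasR. The deposited values were these counts per gene, unscaled, with 1 file per library and 12 libraries in all. Names and coordinates were taken from GENCODE M21 (GRCm38) for 18268 of 18278 identifiers. The third-highest count of every gene was at least 8. Genes were filtered with filterByExpr (count minimum 10, total minimum 15), scaled with TMM factors and fitted with limma-voom (offset 0.5) with 1 mean per group over all 12 libraries, as in the framework of the study's methods. Tests were two-sided with Benjamini-Hochberg adjustment over all 18176 genes at 0.05. DESeq2 1.42.0, edgeR 4.0.16 and limma 3.58.1 were run in R 4.3.3. Exact permutation tests used log2(CPM + 0.5). Reads are not independent molecules, so intervals and floors cover counting error only. All pairs of libraries differed by more than sampling noise (chi-square per gene of at least 1.44).

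The 9 genes and all lists were chosen with earlier results of these data known. Genes named beside the 9 were direct paralogs, P4hb, Fundc1, Hif1a, Epas1, Nfib, lists with 4 or fewer measured genes, and the largest rise and fall of each list on the average of the lines among genes past the threshold in both lines at a mean of at least 1 CPM. Dcn, Trp63, Car9, Aldoa, Pink1, Map1lc3b, Gabarap, Ramp2, Ramp3, Sesn1, Sesn2, Rptor, Mlst8, Akt1s1, Mtor and Deptor were picked after their values were seen. So were the pairings by family, the count of Aldoa as 1 gene and the LM9 levels per kilobase without replicate 1. Genes that these rules select and the text does not name are not reported here. Code was tested on simulated data. As alternatives, each library was left out in turn, the replicate number was added as a block, quality weights were used, and the fit was limited to the groups compared. Tests were repeated with DESeq2 and the edgeR quasi-likelihood method, scaling with median ratios or library totals, filtering with none or with a minimum mean of 5 CPM, and calls with a log2 fold change beyond 1 in size.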

Additional observations from a re-analysis of the deposited data

How the results depend on the processing

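The 8 falls and the 1 rise in LM1 and in LM9 kept their direction and passed under all 22 alternatives, as did the count of 0 between the knockout pools. With library totals in place of TMM factors the all-gene median, averaged over the lines, moved from 0.11 to 0.40 on the log2 scale, so falls were smaller by about that shift, without change of call. LM1 against LM9 depended on the setting: beside 0 genes in the fit of all libraries, DESeq2 gave 4, library totals 2, a mean of at least 5 CPM 4 and quality weights 6, and leaving out each library gave 0 to 7, with 7 without LM9 replicate 1. Over all genes the same comparison gave 1 call with limma-voom, 5772 with DESeq2, 5226 with totals, 4670 at 5 CPM and 11596 with quality weights. Without LM9 replicate 1 it gave 11995. The interaction gave 4 of the 9 genes with quality weights, where 10557 of 18176 genes passed. Leaving out a library gave 0 to 4, with 4 without LM9 replicate 1, where 10444 of 18246 genes passed. No difference past the threshold in either fit changed sign. Differences past it in neither fit did: between the parental lines Bnip3l (0.059) and P4ha2 (0.064) with totals, and in the interaction P4ha2 (-0.028) with totals and Bnip3l with DESeq2 (0.0079), median ratios (0.0060) and quality weights (0.053). Vldlr between the pools did so with median ratios (0.0012), totals (0.0010) and 5 CPM (0.00267). Leaving out a library gave -0.072 to 0.044 for Bnip3l and -0.044 to 1.40 for Adm in the interaction. Between the pools it gave -0.70 to 0.75 for Adm, -0.041 to 0.036 for Vldlr, -0.10 to 0.0076 for Bnip3, -0.024 to 0.0041 for Ndrg1, -0.046 to 0.016 for Kdm3a and -0.022 to 0.013 for P4ha1. The LM9 levels per kilobase without replicate 1 were chosen after seeing the data. Without it the mean went from 455 to 591 for Ddit4 and from 369 to 439 for Ndrg1. For P4ha1 it went from 265 to 291 and for Adm from 22.7 to 26.6. A separate fit of the groups compared has no counterpart for the interaction, which uses all groups, and gave no value for Vldlr between the parental lines or for Adm between the knockout pools, which it filtered out. Adding the replicate block left 9 genes past the threshold in each line and 0 in the other 3 comparisons. Same-numbered libraries did not deviate together (r from -0.0502 to 0.026 across genes), so the numbers were not taken to pair them. At this depth Adm and Vldlr were at or near the counting floor in their low groups, and their fold changes are the least certain.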
